A study of Mus musculus with 15 samples.

Results

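Isolated CGs were taken as the autosomal CG dinucleotides of the mouse hmTOP-seq coverage table that had no other CG of the table within 400 bp on either side. The rule used position only and no read. It selected 189080 CGs, which made up 0.928% of the 20383623 autosomal CGs in the hmTOP-seq coverage table. They were compared with 5991904 CGs that had 1–5 other CGs within 400 bp and with 2878365 CGs that had 20 or more, and the 11324274 CGs with 6–19 others were used for profiles. Another 23910 CGs of chromosome X met the distance rule and were not members.

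The study read 5-hydroxymethylcytosine (5hmC) and unmodified CGs at single sites in E14TG2a mouse embryonic stem cells (mESCs), an established line kept on gelatin with leukaemia inhibitory factor and fetal bovine serum. In hmTOP-seq, the glucosyltransferase BGT puts an azide-bearing glucose on 5hmC, a DNA oligonucleotide is tethered to it by click chemistry, and a polymerase primes from the oligonucleotide, so that a read starts at the modified CG. The groups were 2 labelled hmTOP-seq libraries each from 500, 50 and 5 ng of DNA, 2 libraries marked K at each of these inputs, and 3 uTOP-seq libraries from 300 ng, in which unmodified CGs are read, by strand. The labels do not say what K stands for, and the K libraries were taken here to be the study's controls, for which the BGT step was left out. No other genotype, treatment or cell type was used, the 2 libraries of an input were technical replicates, and no source used here says that the 3 uTOP-seq libraries came from separate cultures, so every p-value measures the spread between libraries, which may be technical.

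In mammalian genomes most CGs are methylated, and 5-methylcytosine tends to be lost to TG over evolutionary time, which leaves long stretches with few CGs between the dense CpG islands. TET enzymes oxidise 5-methylcytosine to 5hmC, which in mESCs is known chiefly from gene bodies, enhancers and the flanks of CpG islands. A CG in a desert of other CGs can be modified like any other.

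The labelled libraries held 14884939 to 32502791 reads, the K libraries 3409 to 10072 and the uTOP-seq libraries 20120568 to 28412885. A level below is the number of reads per CG, counted over all CGs of a class whether or not they had a read. Libraries differ in depth, so classes were compared inside a library, as the log2 ratio of their levels. At isolated CGs the reads behind a level ranged from 30623 to 51280 in the labelled libraries and from 112263 to 159369 in uTOP-seq. Reads carry no molecular identifiers, so the exact binomial (Clopper-Pearson) 95% intervals given for shares cover counting error only. A read count does not give the share of DNA copies that carry the mark.

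The sequence around the sites shows what isolation looks like, and 3 sets of 4 sites are printed, each as 30 bases of the plus strand of GRCm38 with the isolated CG in capitals. The sets were picked with a chromosome left out, so each ranking holds among the autosomes searched. The first set is the 4 isolated CGs there that lay farthest from any other CG, with no unknown base within that distance. They were chosen with no read. The first lay 2621 bp from the nearest CG in no gene, the second 2561 bp in no gene, and the third and the fourth 2370 bp and 2269 bp within an intron of Arid4a, which encodes a chromatin-associated protein.
Farthest A, chr6:16374446-16374475: acagcaaagacagaCGttacctcagagtaa
Farthest B, chr10:98244956-98244985: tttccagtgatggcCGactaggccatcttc
Farthest C, chr12:71090035-71090064: ccttcagatacactCGctgccttcagatat
Farthest D, chr12:71092405-71092434: gatacactctctgcCGtcagatacactctc
All 4 were soft-masked repeat sequence. None had a read in any labelled or K library, and uTOP-seq gave 3 reads in replicate 2 at farthest A and none elsewhere. The 30 bases of farthest B occur 556 times in the autosomes and X, counting both strands, and only reads of mapping quality 30 or more were kept by the authors. The other 3 sequences occur once, which does not show that reads there map uniquely. Farthest C and D are each other's neighbouring CG, 2370 bp apart, and so are not separate places.

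The second set is the 4 isolated CGs whose lower 500-ng count was the highest, shown as the strongest 5hmC reads at lone CGs. These were chosen by their 500-ng values, which are given as a description.
Strong hmC A, chr14:10785932-10785961: aatcataccctataCGacctttctcaatga
Strong hmC B, chr3:6990239-6990268: gcagggcaggaaccCGggggcaggtgctaa
Strong hmC C, chr4:121703828-121703857: ccccaccacatcccCGgtgcatcaggtttc
Strong hmC D, chr19:4228588-4228617: ggggagctgactagCGgagctggtggggaa
Strong hmC A lay within an intron of Fhit, a large gene that encodes a dinucleoside triphosphate hydrolase, and its 2 libraries per input had 61 and 40 reads (500 ng), 38 and 34 (50 ng) and 19 and 23 (5 ng), with no uTOP-seq read. Strong hmC B, in no gene and in repeat sequence, had 30 and 42 reads in the 500-ng libraries, 36 and 21 in those of 50 ng, 4 and 7 in those of 5 ng, and 9, 5 and 8 in uTOP-seq. Strong hmC C, in no gene, had 30 and 34 reads in the 500-ng libraries, 18 and 20 in those of 50 ng, 11 and 28 in those of 5 ng, and 0, 1 and 1 in uTOP-seq. The first 3 of these sites were therefore seen in all 6 labelled libraries, whereas, of these 3, uTOP-seq covered only B in every replicate. Strong hmC D, in an intron of AC109138.7, had 28 and 29 reads at 500 ng but 0 and 10 at 50 ng and none at 5 ng, with 8, 4 and 8 in uTOP-seq. K libraries had no read at any of these 4 sites.

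The third set is the 4 isolated CGs with the most uTOP-seq reads, by the lowest replicate, among those with no read at 500 or 50 ng, shown as lone CGs that only the unmodified-CG assay saw. The values chose these sites too.
Unmodified A, chr17:21264000-21264029: ctgcctcaggaccaCGtgactcttctcaac
Unmodified B, chr4:70602876-70602905: tccctatttgtataCGtgggtgcaccacat
Unmodified C, chr6:72014803-72014832: ctccaatcccaccaCGtgaattcaggtgct
Unmodified D, chr5:57918581-57918610: gtggaattttacccCGaattgaaaatacat
Unmodified A, in no gene and 1133 bp from Vmn1r235, had 18, 11 and 11 uTOP-seq reads. Unmodified B, in no gene, had 14, 10 and 14, of which 2, 0 and 1 were on the plus strand. Unmodified C, in an exon of the long noncoding RNA 9130221F21Rik, had 9 in each library. Unmodified D, in an intron of Pcdh7, which encodes a protocadherin, had 8, 9 and 10, all on the plus strand. The sites thus differed in strand, with reads of A and C on both strands, of B mostly on 1 and of D on 1 alone. None of them had a read in a 5-ng or K library. A and C hold the 6 bases CACGTG, to which the results return.

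The median isolated CG lay 491 bp from the nearest CG, the 75th percentile 585 bp and the 99th 1057 bp, and 2751 isolated CGs lay 1000 bp or more away. The 801 bases centred on an isolated CG held a median of 37.0% G or C, against 40.3% for CGs with 1–5 others, 45.6% for 6–19 and 56.6% for 20 or more. Isolated CGs lay far from genes more often than the CGs with 1–5 others did. Of the isolated CGs, 52.6% were intergenic, meaning 50 kb or more from protein-coding genes, 26.5% were intronic, 1.26% exonic and 0.823% within 2 kb upstream of a gene, against 39.7%, 35.5%, 2.16% and 0.916% of the CGs with 1–5 others. Soft-masked repeats held 27.2% of isolated CGs and 28.6% of the CGs with 1–5 others. TG and CA, which the loss of methylated CGs can leave, stood at a median of 14.4 per 100 bases around isolated CGs, against 14.7, 15.2 and 13.4 in the classes with 1–5, 6–19 and 20 or more others. All TG and CA were counted, with no scaling for base composition, so these values do not measure CG loss. By autosome, isolated CGs made up 0.604% to 1.24% of CGs, with a median of 0.911%.

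Isolated CGs carried fewer 5hmC reads per site than CGs with even a few neighbours, whereas unmodified-CG reads differed little between these 2 classes. At 500 ng the level at isolated CGs was 0.264 reads per CG in replicate 1 and 0.271 in replicate 2, against 0.626 and 0.629 at CGs with 1–5 others. At 50 ng it was 0.222 and 0.220 against 0.486 and 0.473, and at 5 ng 0.162 and 0.162 against 0.336 and 0.348. All 6 labelled libraries were lower at isolated CGs, and no library's isolated level reached the 1–5 level of any labelled library. In uTOP-seq the level at isolated CGs was 0.843, 0.702 and 0.594 reads per CG, against 0.936, 0.763 and 0.664, so all 3 libraries were lower by a small step, while the ranges of the 2 classes overlapped.

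**Figure D1:**
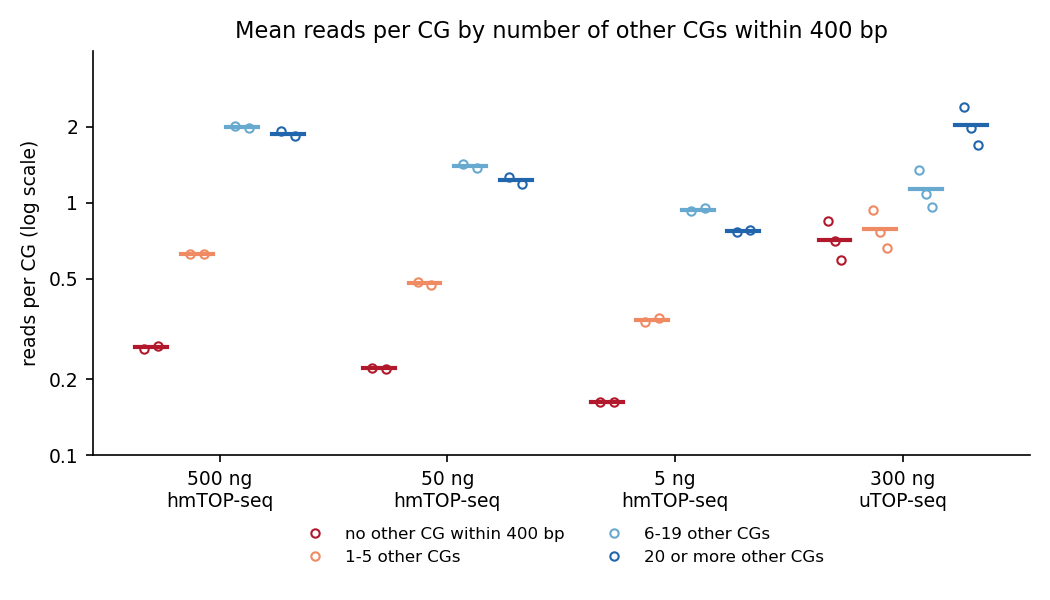
Reads per CG (log axis) at isolated CGs and at CGs with 1–5, 6–19 and 20 or more other CGs within 400 bp, for labelled hmTOP-seq at 500, 50 and 5 ng and for uTOP-seq at 300 ng, with 1 circle per library and a bar at the group mean. The isolated class is the lowest of its library throughout, at 0.162 to 0.271 in hmTOP-seq and 0.594 to 0.843 in uTOP-seq.

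The log2 ratio of isolated CGs to CGs with 1–5 others averaged −1.14 ± 0.074 (SD, n = 6) in hmTOP-seq, which is a level of 0.453 of theirs, and ranged from −1.25 to −1.05. An exact two-sided sign-flip permutation test over the 6 libraries gave p = 0.03125, the smallest that 6 libraries allow, and 0.03125 after Benjamini-Hochberg adjustment over the 5 tests of levels and shares. The mean of the 500-ng libraries was −1.23 ± 0.024, that of the 50-ng libraries −1.12 ± 0.019 and that of the 5-ng libraries −1.08 ± 0.033 (SD, n = 2 each). In uTOP-seq the ratio was −0.14 ± 0.021 (SD, n = 3), a level of 0.905, and 3 libraries cannot give a p below 0.25, so none is given. The difference between the 2 assays, −0.997 on the log2 scale, had p = 0.0238 by an exact permutation test of 6 against 3 libraries, the smallest possible (adjusted 0.03125), and every hmTOP-seq library lay below every uTOP-seq library.

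Against CGs with 20 or more others taken as 1 class, the level at isolated CGs was lower in both assays. The class was not uniform in hmTOP-seq. Its 680502 CGs with 60–159 others had 0.171 reads per CG (500-ng mean), below the 0.267 of isolated CGs. The CGs with 20 or more others had 1.92 and 1.84 hmTOP-seq reads per CG from 500 ng of DNA, 1.26 and 1.19 from 50 ng, and 0.762 and 0.776 from 5 ng. The log2 ratio was −2.51 ± 0.26 (SD, n = 6), or a level of 0.176, with p = 0.03125 in the exact sign-flip permutation test (adjusted 0.03125). It was −2.81 with the highest input, −2.47 with 50 ng and −2.25 with the lowest. In uTOP-seq the dense class had 2.40, 1.98 and 1.69 reads per CG and the ratio was −1.50 ± 0.0073 (SD, n = 3). The assays differed by −1.01 (p = 0.0238, exact permutation test, adjusted 0.03125). This difference depended on the distance that sets the classes: with neighbours counted within 200 bp it was 1.07, in the other direction, while the contrast with 1–5 others kept its direction at both distances tried. The hmTOP-seq ratio to 20 or more others was itself −0.429 with 200 bp and −3.34 with 800 bp.

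The same order held for the share of sites seen at all. At 500 ng 11.1% ± 0.64 (SD, n = 2) of isolated CGs had a read, against 20.3% of CGs with 1–5 others. The shares were 5.28% ± 0.36 and 10.2% at 50 ng, and 1.29% ± 0.011 and 2.70% at 5 ng. In uTOP-seq 29.5% ± 2.6 (SD, n = 3) of isolated CGs had a read, against 30.8%. On each of the 19 autosomes the isolated level was below that of CGs with 1–5 others, by −1.44 to −1.04 (log2) at 500 ng and by −0.243 to −0.051 in uTOP-seq. These autosomes share their libraries and are a description, not replicates.

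The level of 5hmC reads climbed with each neighbour added, from 0.267 reads per CG (500-ng mean) with no other CG to 0.334 with 1 and 0.856 with 5. It was highest at 3.54 with 21 others, and stood at 1.57 with 39 and at 0.171 with 60–159. In uTOP-seq the mean was 0.713 with no other CG, 0.726 with 1, 0.833 with 5, 1.60 with 21, 2.62 with 39, 2.9994 with 50–59 and 1.95 with 60–159. The isolated CGs were thus the low end of the rise up to 21 others in hmTOP-seq and of a near-flat stretch in uTOP-seq. In hmTOP-seq the CGs with 60–159 others lay lower still.

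**Figure D2:**
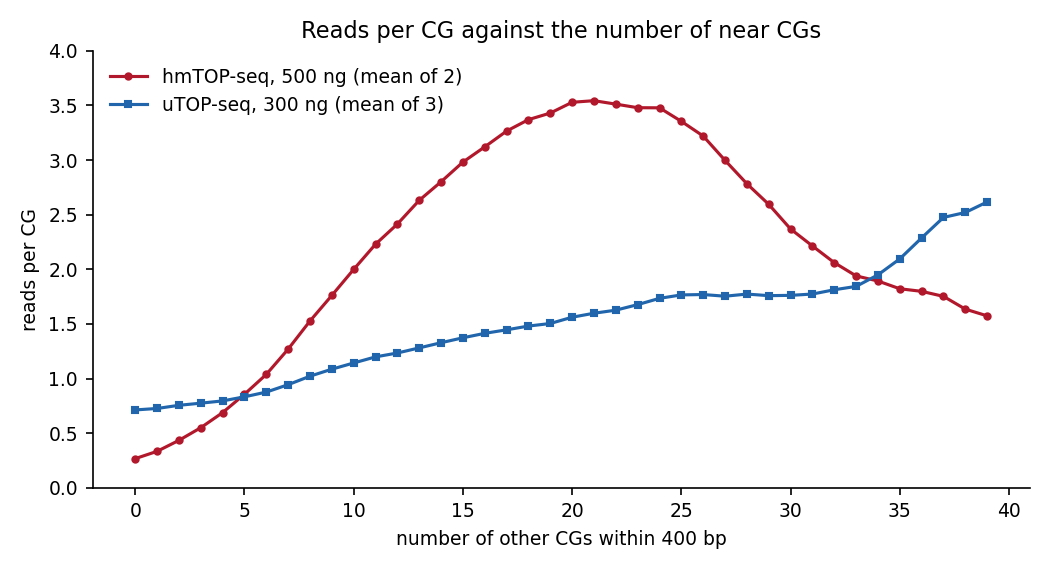
Mean reads per CG by the number of other CGs within 400 bp, from 0 to 39, for hmTOP-seq at 500 ng (mean of 2 libraries) and uTOP-seq at 300 ng (mean of 3). The hmTOP-seq curve starts at 0.267 for isolated CGs, is highest at 3.54 with 21 others and ends at 1.57, whereas the uTOP-seq curve starts at 0.713 and ends at 2.62.

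Among isolated CGs themselves, those farther from the nearest CG had fewer 5hmC reads. At 500 ng the 27547 CGs at 401–420 bp had 0.308 and 0.321 reads per CG, the 50523 at 441–500 bp 0.272 and 0.281, the 45655 at 501–600 bp 0.254 and 0.264, and the 31634 at 601–800 bp 0.234 and 0.230. The 7771 at 801–1000 bp had 0.198 and 0.205, and the 2729 beyond 1000 bp 0.171 and 0.185. Both replicates gave the same order over these bins. In uTOP-seq the bins had no such order, with 0.855, 0.710 and 0.601 at 401–420 bp and 0.864, 0.712 and 0.579 beyond 1000 bp. Just outside the limit, the 33576 CGs with the nearest other CG at 381–400 bp had 0.298 and 0.308 at 500 ng, so there was no step at 400 bp.

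**Figure D3:**
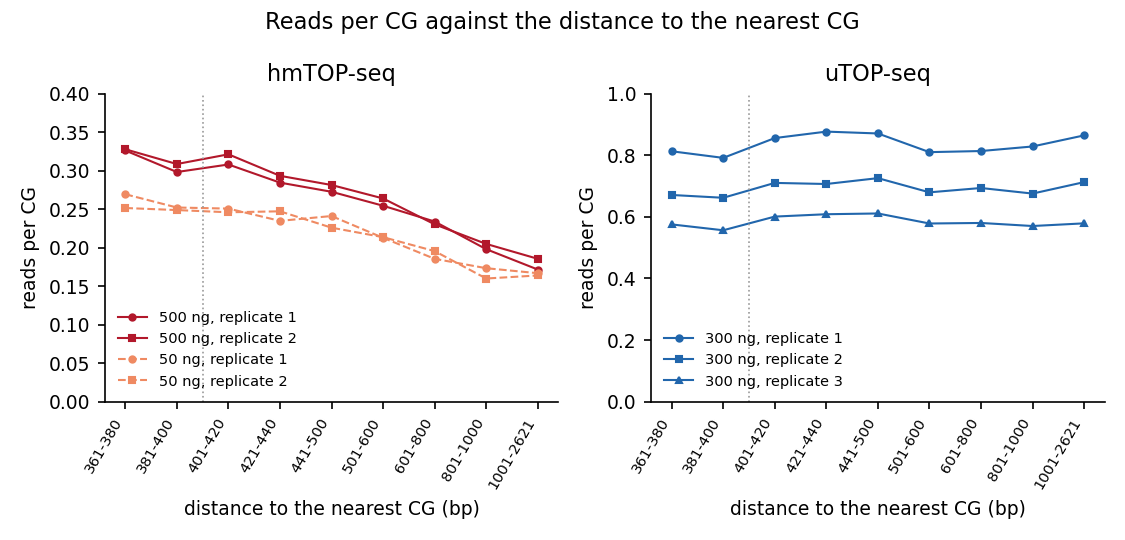
Reads per CG by the distance to the nearest other CG (bp, unequal bins), 1 line per library, for hmTOP-seq at 500 and 50 ng (left) and uTOP-seq at 300 ng (right), with a dotted line at the 400-bp limit. The 500-ng libraries stand at 0.308 and 0.321 at 401–420 bp and at 0.171 and 0.185 beyond 1000 bp, and the uTOP-seq libraries at 0.855, 0.710 and 0.601 and at 0.864, 0.712 and 0.579.

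The base composition around the sites moved with these levels. Isolated CGs in sequence with under 33% G or C had 0.0442 and 0.0475 reads per CG at 500 ng, and those in sequence with 42% or more had 0.663 and 0.676, and in every labelled and uTOP-seq library each GC bin was above the one before it. Within a bin the log2 ratio of isolated CGs to CGs with 1–5 others at 500 ng in replicate 1 was −0.71 below 33%, −0.53 at 33–36%, −0.41 at 36–39%, −0.50 at 39–42% and −0.78 at 42% or more. When the CGs with 1–5 others were weighted to the GC bins of the isolated CGs, a setting chosen after seeing the data, the hmTOP-seq ratio was −0.57 (exact sign-flip permutation p = 0.03125), the uTOP-seq ratio turned to 0.092, and the assays differed by −0.66 (exact permutation p = 0.0238). GC content is fixed by sequence and was also higher in every class with more CGs. Its part in the remaining difference was not tested.

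The difference from CGs with 1–5 others was present in every annotation. At 500 ng introns had 0.349 ± 0.010 reads per isolated CG against 0.786, exons 0.357 ± 0.015 against 0.964 and 2-kb upstream regions 0.361 ± 0.017 against 1.08 (SD, n = 2). Intergenic sequence at least 50 kb from a gene had the lowest level, 0.200 ± 0.0052 against 0.377, and here the ratio of 0.532 was nearest to 1 of the 5 annotations. In each annotation isolated CGs were below CGs with 1–5 others in 6 of 6 labelled libraries. In uTOP-seq the ratio was 0.728 upstream of genes, 0.827 in exons, 0.882 in introns and 1.03 ± 0.018 (SD, n = 3) in intergenic sequence, where isolated CGs had 0.660 reads per CG against 0.643. Repeats divided the assays further. In soft-masked repeats isolated CGs had 0.282 ± 0.0084 at 500 ng against 0.457, and in uTOP-seq 0.595 ± 0.10 against 0.513, so that isolated CGs were above in 3 of 3 libraries. Outside repeats the levels were 0.262 ± 0.0042 against 0.695 at 500 ng and 0.757 ± 0.13 against 0.898 in uTOP-seq.

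The bases on either side of a lone CG went with a larger range of levels than its isolation did. Taking the 2 bases before and the 2 after the CG, with both strands merged, there were 136 contexts, of which 118 had at least 300 isolated CGs. At 500 ng the isolated level ran from 0.0180 reads per CG in TTCGAA (1524 CGs; 0.0131 and 0.0230 in the replicates) to 1.501 in CCCGGG (715 CGs; 1.42 and 1.58), or 83.2-fold. The same 2 contexts stood at 0.0545 and 2.74 among CGs with 1–5 others. In uTOP-seq the isolated level ran from 0.177 in TACGTA to 2.03 ± 0.39 in CCCGGG (SD, n = 3), or 11.5-fold. Strong hmC B above is one of the CCCGGG sites.

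CACGTG, the core of the E-box bound by many basic helix-loop-helix factors, stood high in only 1 of the assays. Its 2653 isolated CGs had 2.03, 1.65 and 1.47 uTOP-seq reads per CG, the second highest of the 118 contexts, and 0.402 and 0.375 at 500 ng, the 32nd. It made up 1.40% of isolated CGs and 1.40% of CGs with 1–5 others. CTCGAG, with 1000 isolated CGs, likewise ranked 6th in uTOP-seq (1.81, 1.50 and 1.25) and 45th at 500 ng (0.264 and 0.302). CCCGGC ranked 2nd at 500 ng (1.46 and 1.48) and 8th in uTOP-seq (1.48, 1.13 and 1.11). A match to 6 bases is a description and names no bound factor.

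Several of the highest contexts shared the form CNCGNG, with C before and G after the CG at 1 base of distance, a grouping made after the values were seen. Its 11271 isolated CGs (5.96%) had 0.673 and 0.676 reads per CG at 500 ng, against 0.238 and 0.246 at other isolated CGs, or 2.79 ± 0.055-fold (SD, n = 2). The fold was 2.54 ± 0.10 at 50 ng, 2.65 ± 0.019 at 5 ng and 2.52 ± 0.068 in uTOP-seq (n = 3). Among CGs with 1–5 others it was 2.61, 2.42, 2.40 and 2.51 in the same order. The form thus went with higher levels in both assays and in both classes, and the cause was not tested.

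The lower 5hmC level at isolated CGs was also present when CGs of the same context were compared. Within contexts, isolated CGs were below CGs with 1–5 others in 118 of 118 at 500 ng in both replicates and in 50-ng replicate 1, in 117 of 118 in the other 3 labelled libraries, and in 88, 88 and 93 of 118 in uTOP-seq. The median log2 ratio over contexts was −1.11 for the 500-ng mean and −0.12 for uTOP-seq. With CGs with 1–5 others weighted to the contexts of isolated CGs, also a setting chosen after seeing the data, the ratio was −1.004 in hmTOP-seq (exact sign-flip permutation p = 0.03125) and −0.095 in uTOP-seq.

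**Figure D4:**
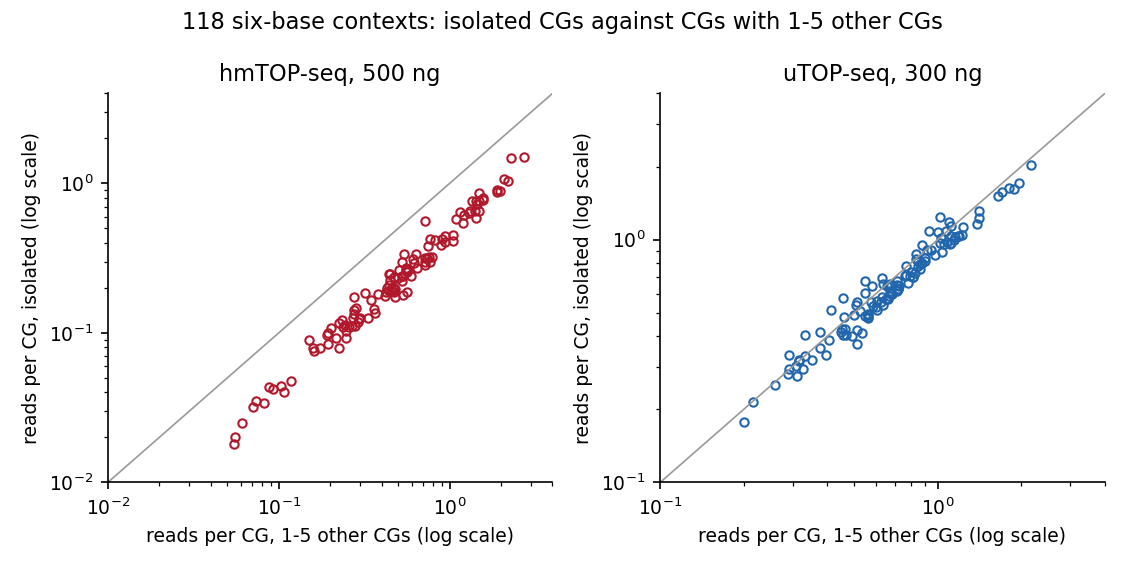
Reads per CG at isolated CGs (vertical) against CGs with 1–5 others (horizontal) in the 118 contexts of 6 bases, 1 circle per context, for the 500-ng mean of 2 hmTOP-seq libraries (left) and the mean of 3 uTOP-seq libraries (right), on log axes with a line of equal levels. All 118 contexts lie below the line at 500 ng, and 93 of 118 in uTOP-seq.

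Replicate libraries shared a smaller part of their lone sites than of their dense ones. At 500 ng 20205 and 21917 isolated CGs had a read, and 8812 had one in both, which is 43.6% and 40.2% of each list. For CGs with 1–5 others these shares were 55.9% and 52.2%, and for 20 or more 77.7% and 76.5%. At 50 ng 2479 isolated CGs were shared (26.1% and 23.7%), at 5 ng 221 (8.98% and 9.09%), and 80 had a read in both replicates of all inputs. For CGs with 1–5 others the shares were 36.8% and 33.8% at 50 ng, and 13.2% and 13.4% at 5 ng. Across the 189080 isolated CGs, which share libraries and base composition, Pearson's r between the 500-ng replicates was 0.567, and it was 0.697 over CGs with 1–5 others and 0.858 over those with 20 or more. Of the isolated CGs shared at 50 ng, 57.8% were shared at 500 ng too, and of those shared at 5 ng 71.04%. For CGs with 1–5 others the figures were 70.9% and 81.6%. The classes also differ in reads per CG, and the part of this in the overlaps was not tested.

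The reads at isolated CGs were concentrated on fewer sites at lower input. CGs with 10 reads or more took 13.3% and 12.003% of the isolated reads in the 500-ng libraries, 29.2% and 23.4% in those of 50 ng and 83.0% and 83.7% in those of 5 ng, against 6.18%, 3.02% and 2.65% in uTOP-seq. The variance of reads over their mean was 4.84 and 4.50 at 500 ng and 25.6 and 26.7 at 5 ng. Sites with a read averaged 12.4 and 12.6 reads at 5 ng, and 2.47 and 2.34 at 500 ng. The other classes also had more reads per covered site at 5 ng. CGs with 1–5 others averaged 12.33 and 13.01 there against 3.19 and 2.99 at 500 ng. CGs with 20 or more averaged 11.25 and 11.81 against 6.23 and 5.87. The rise at low input was thus not particular to isolated CGs.

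Where a lone CG had 5hmC reads, unmodified-CG reads were also more frequent. Of the 8812 isolated CGs with a read in both 500-ng libraries, 26.0% had a read in all 3 uTOP-seq libraries, against 6.87% of the other isolated CGs, and the mean uTOP-seq level was 1.76 against 0.662 reads per CG. The CGs with 1–5 others gave nearly the same shares, 26.3% and 6.73%. Over all 9 labelled and uTOP-seq libraries, 39.5% of isolated CGs had no read, 38.1% had uTOP-seq reads only, 5.45% hmTOP-seq reads only and 17.0% both. For CGs with 1–5 others, 29.4% had uTOP-seq reads only, 9.09% hmTOP-seq reads only and 26.7% both.

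The uTOP-seq reads at isolated CGs were nearly even between strands. The plus strand held 49.2% (95% interval 48.996–49.488), 49.2% (48.9–49.5) and 48.6% (48.3–48.9) of them. With 20 or more others the plus share was 46.5%, 46.4% and 45.9%. Of the 5917 isolated CGs with 6 uTOP-seq reads over the 3 libraries, 2959 (50.0%) had all of them on 1 strand, as unmodified D did, against 48.1% of CGs with 1–5 others and 54.7% of those with 20 or more.

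The K libraries had almost no reads at lone CGs but a larger share of their few reads fell there. The 6 K libraries had 37 and 37 reads at isolated CGs from 500 ng of DNA, 23 and 23 from 50 ng and 69 and 80 from 5 ng, or 0.000122 to 0.000423 reads per CG against 0.162 to 0.271 in the labelled libraries. As a share of autosomal reads, isolated CGs took 0.155% (0.154–0.156) and 0.162% (0.161–0.164) in the 500-ng libraries, 0.184% and 0.1905% in those of 50 ng and 0.208% and 0.203% in those of 5 ng. In K libraries the share was 0.372% (0.262–0.512) and 0.401% (0.283–0.552) with 500 ng, 0.679% and 0.679% with 50 ng, and 1.86% (1.45–2.35) and 1.69% (1.35–2.10) with 5 ng. The groups did not overlap, and their means of 0.184% ± 0.021 and 0.947% ± 0.66 (SD, n = 6 each) differed by −0.763 percentage points (exact two-sided permutation test, p = 0.00216, the smallest possible, adjusted 0.0108). With the isolation distance set to 800 bp the difference was −0.050 points (exact permutation p = 0.387).

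A few sites held many of the K reads. The site of most reads took 41 of the 69 and 49 of the 80 isolated K reads at 5 ng, and 5 of 37 in both 500-ng K libraries. Without that site in each K library, a setting chosen after seeing the data, the difference was −0.328 points (exact permutation p = 0.00216). In all, 68 isolated CGs had a read in any K library and 1 in more than 1 of them. Of a K library's 5 to 22 isolated CGs with a read, 0% to 22.7% had a read in the labelled library of the same input and number. At 500 ng these shares were 19.05% and 22.7%, against 10.69% and 11.59% of all isolated CGs. At 50 ng they were 16.67% and 11.11% against 5.02% and 5.54%, and at 5 ng 20% and 0% against 1.302% and 1.286%. Whether the shares differ was not tested. CGs with 1–5 others likewise took 20.3% to 27.6% of K reads and 11.7% to 13.8% of labelled reads.

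Gene bodies allowed the comparison of isolated CGs with CGs that share the same gene. Of 20807 autosomal protein-coding genes, 8198 held an isolated CG and 497 held at least 20 CGs of both classes. At 500 ng isolated CGs were lower in 161 genes (32.7% of 492 tested) and higher in 8 (1.63%) by edgeR's quasi-likelihood test at an adjusted p of 0.05, with a median log2 ratio of −0.74 (25th to 75th percentile −1.30 to −0.21) and 83.9% of genes below 0. In uTOP-seq the median was 0.021, and isolated CGs were lower in 4 genes (0.81% of 494) and higher in 17 (3.44%). These uTOP-seq calls fell to 0 outside repeats (39 unadjusted), to 0 without replicate 1 or 2 (58 and 54 unadjusted) and to 2 without replicate 3. DESeq2 called 88 lower and 6 higher at 500 ng, all 94 among the edgeR calls. The 500-ng calls were lost in other settings. TMM scaling, which moves the ratios of all genes up alike and the median to −0.056, gave 0 lower and 8 higher (98 genes at an unadjusted p under 0.05). Outside repeats 0 were called (110 unadjusted), and 0 with all 6 labelled libraries in 1 fit (13 unadjusted). Leaving out either 500-ng library left 1 at that input, which was assumed to vary like the other inputs. Calls from these fits therefore cannot show whether the result rests on 1 replicate. The median ratio was about as low in these other fits, with −0.736 outside repeats, −0.787 with all 6 libraries, and −0.709 and −0.791 without replicate 1 and 2.

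At the lower inputs the gene test had little power. At 50 ng it called 3 genes lower (0.609% of 493) and 1 higher (0.203%), with a median of −0.90 and 90 genes at an unadjusted p under 0.05, and DESeq2 called 11 and 1. At 5 ng edgeR called 0 of 491, with 0 unadjusted, and DESeq2 called 0, with 26 unadjusted. In simulated data with 2-fold changes in 164 genes the test recovered 50.6% at 500 ng, 94.5% in uTOP-seq and 0% at 50 ng.

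Of the 12 genes with the most isolated CGs, 6 (Cntnap2, Csmd3, Dlg2, Lrp1b, Lsamp and Ptprd) belong to a list of long neuronal cell-surface genes. Cntnap2, a neurexin-family adhesion protein with 407 isolated CGs, had 0.197 and 0.184 reads per isolated CG at 500 ng (80 and 75 reads), against 0.314 and 0.314 at its CGs with 1–5 others, and in uTOP-seq 0.826, 0.813 and 0.541 against 0.838, 0.691 and 0.609. Both 500-ng libraries were lower at its isolated CGs, whereas the uTOP-seq ranges overlapped. Its log2 ratio was −0.72 ± 0.20 (SE; edgeR adjusted p = 0.00239) at 500 ng and 0.020 in uTOP-seq. Lrp1b, a receptor of the LDL receptor family with 322 isolated CGs, had 0.124 and 0.109 against 0.237 and 0.247 (−1.05 ± 0.24, edgeR adjusted p = 0.000203), but its 50-ng replicates were far apart at 0.0155 and 0.224. Nkain2, which encodes a partner of the sodium pump's beta subunit and has 221, had 0.118 and 0.109 against 0.271 and 0.297 (−1.33 ± 0.27, edgeR adjusted p = 5.81e-05). Macrod2, an ADP-ribose hydrolase gene with 229, had 0.223 and 0.214 against 0.386 and 0.408 (−0.86 ± 0.21, edgeR adjusted p = 0.000852).

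The other genes of this set split between called and not called. Lsamp and Ptprd, with 278 and 274 isolated CGs, encode a limbic adhesion protein and a receptor tyrosine phosphatase and had ratios of −0.71 and −0.81 (edgeR adjusted p = 0.0140 and 0.00782), and Csmd3, with 206, had −0.84 (adjusted p = 0.0157). Dlg2, a synaptic scaffold, Lrrc4c, a netrin-G ligand, Sgcz, a sarcoglycan, Agbl4, a carboxypeptidase of tubulin, and Lingo2, a leucine-rich-repeat membrane protein, had −0.40, −0.58, −0.26, −0.48 and −0.26 and did not pass (edgeR adjusted p from 0.0656 to 0.467). TMM scaling, which raises every gene's ratio by about the same amount, puts these 5 above 0. Agbl4 went the other way in uTOP-seq, with 1.16, 0.929 and 0.820 reads per isolated CG against 0.845, 0.698 and 0.605 (0.43 ± 0.10, edgeR adjusted p = 0.00421, one of the uTOP-seq calls of which at most 2 were left without a library), so that each library was higher at its isolated CGs. At 500 ng the same gene had 0.284 and 0.294 against 0.406 and 0.398.

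**Figure D5:**
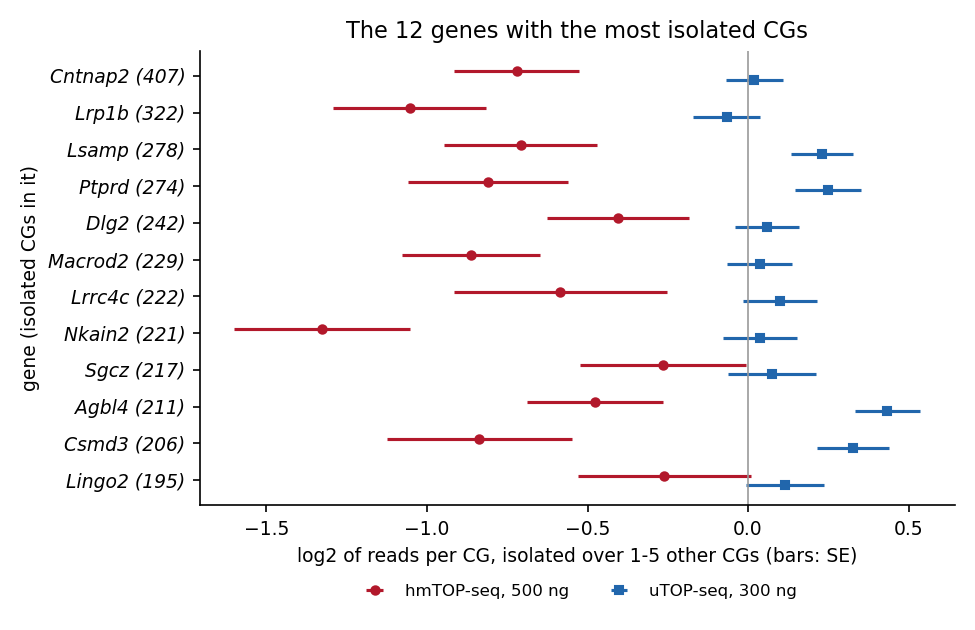
Log2 ratio of reads per CG, isolated over 1–5 others, for the 12 autosomal protein-coding genes with the most isolated CGs, from the edgeR fit at 500 ng and in uTOP-seq, with bars of 1 SE. At 500 ng the ratios run from −1.33 in Nkain2 to −0.26 in Lingo2 and Sgcz, while in uTOP-seq Agbl4 stands at 0.43.

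Among called genes with at least 50 isolated CGs, those with the lowest ratios at 500 ng had very few reads. Lama2, which encodes a laminin alpha chain, had 0 and 5 reads at 72 isolated CGs (edgeR adjusted p = 3.00e-05), and its fitted ratio of −3.06 rests on these few reads. St18, a zinc-finger factor, had 2 and 4 reads at 52 isolated CGs at 500 ng (−2.61, edgeR adjusted p = 0.000242) but 13 and 17 at 50 ng, where its ratio was 0.060. Sema3a, a secreted guidance cue, had 5 and 2 reads (−2.50), Ccdc85a 6 and 1 (−2.37), Celf2, an RNA-binding splicing regulator, 6 and 4 (−2.12), and Gucy1a2, a guanylate cyclase subunit, 2 and 9 (−2.06). At 50 ng the ratios of Lama2, Sema3a, Ccdc85a, Celf2 and Gucy1a2 were −1.86, −1.13, −0.94, −1.62 and −2.24, and none passed. These 6 were selected for their 500-ng values.

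In the other direction 4 genes of this size were called. Nav3, a microtubule-binding protein, had 34 and 29 reads at 56 isolated CGs, or 0.607 and 0.518 per CG against 0.261 and 0.277 (1.06 ± 0.29, edgeR adjusted p = 0.00266), but 1 and 13 reads at 50 ng. Rp1, a protein of the photoreceptor axoneme, had 0.809 and 0.662 against 0.428 and 0.389 (0.84, edgeR adjusted p = 0.00576), with a ratio of 0.030 outside repeats. March1, a ubiquitin ligase, had 0.455 and 0.601 against 0.331 and 0.346 (0.64, edgeR adjusted p = 0.0126). Cdh12, a cadherin, had 0.345 and 0.256 against 0.192 and 0.201 (0.61, edgeR adjusted p = 0.0342), which did not pass with DESeq2 (adjusted p = 0.0870) or with no filter on reads (edgeR adjusted p = 0.0599). At 50 ng the ratios of Nav3, Rp1, March1 and Cdh12 were −1.24, −0.68, −0.12 and 0.18, and none passed.

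Gene lists differed widely in how many lone CGs they hold. The 27 autosomal long neuronal cell-surface genes held 4851 isolated CGs, 2.39% of their 203395 CGs, and all 27 were tested. At 500 ng 14 were lower and 1, Cdh12, higher, and 25 of 27 lay below 0 with a median of −0.61, against 32.7% lower and a median of −0.74 over all genes tested. Gpc5, a glypican, had 0.0959 and 0.144 reads per isolated CG against 0.313 and 0.318 (−1.40, edgeR adjusted p = 7.15e-05). In uTOP-seq 0 of the 27 were lower and 1 was higher, against 0.81% lower and 3.44% higher over all genes tested. The higher gene was Nrg1, a growth factor of the neuregulin family, at 0.54 ± 0.14 (edgeR adjusted p = 0.00911, from the same uTOP-seq calls). The median over the 27 was 0.100, against 0.021 over all genes tested. At 50 ng 1 of the 27 was lower, against 0.609% of all genes tested. This was the glypican gene Gpc6, with 0 and 0 reads at its 28 isolated CGs (edgeR adjusted p = 0.0454), against 7 and 10 reads at 500 ng.

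Genes that act in the stem cells' own identity hardly held any. The 18 pluripotency factors had 2 isolated CGs among 7437 CGs (0.0269%), 1 each in Esrrb and Tfcp2l1. The 9 DNA methylation and demethylation enzymes had 7 among 7640 (0.0916%), of which 5 lay in Tet2, which itself makes 5hmC, 1 in Tet1 and 1 in Tdg, the glycosylase that removes the later oxidation products. The 19 autosomal Polycomb proteins had 27 among 11670 (0.231%), in 9 genes, with 8 in Rybp, 5 in Jarid2 and 4 in Ezh2. All 3 lists were below the 0.928% of all autosomal CGs, and no gene of them held 20 isolated CGs, so none could be tested. The lists count CGs within genes, whereas 52.6% of isolated CGs were intergenic, so the 0.928% is not a like baseline.

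Lone CGs were spread along the chromosomes, in 2411 windows of 1 Mb with a median of 63 and at most 242 per window. The window with the most, chr1:99000001-100000000, had 0.161 and 0.145 reads per isolated CG at 500 ng and 0.752, 0.574 and 0.459 in uTOP-seq. Reads at isolated CGs per window were compared between inputs with edgeR on all windows and classes, relative to TMM scaling. Between 50 and 500 ng 20 of 1126 isolated features were higher at 50 ng and 2 lower (148 at an unadjusted p under 0.05), against 2.27% higher and 5.48% lower over all 8326 features, and DESeq2 called 0 (54 unadjusted), against 91 higher and 370 lower over all features. A feature needed 10 reads in every library, so those tested are not all windows, and with no such filter 0 of 2395 were higher and 2 lower. Between 5 and 500 ng edgeR called 0 of 385 (126 unadjusted) and 0 of all 7510 features, whereas DESeq2 called 85 isolated features higher at 5 ng and 0 lower, against 692 higher and 776 lower over all 7510. The 385 features were those with 10 reads even in the sparse 5-ng libraries, and their edgeR median log2 ratio was 1.10. With no filter it was −0.328 over 2394 isolated features, with 0 called. The 85 calls therefore give no direction for isolated CGs as a class.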

How the data were processed

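Read counts per CG were analysed for 6 labelled hmTOP-seq, 6 K and 3 uTOP-seq libraries of E14TG2a cells. As deposited by the authors, both tables hold raw read counts per CG, with strands merged in hmTOP-seq and apart in uTOP-seq (summed here). Per the study's methods, Ion Proton reads of at least 80 nt were mapped to mm10 at a mapping quality of 30 or more, and reads of the same start and length were removed as duplicates. The mapper was not given in the sources used here. All 21353092 deposited positions matched a CG of GRCm38 after adding 1, since the authors count from 0.

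Neighbours were counted within 400 bp among the CG positions of the hmTOP-seq coverage table, and genes came from GENCODE M21. A CG was given to exon, intron, 2-kb upstream, intergenic (50 kb or more from protein-coding genes) or other. Level ratios were formed inside a library and tested by exact permutation over libraries. For genes, reads were summed per gene and class and tested with edgeR's quasi-likelihood test (R 4.3.3, edgeR 4.0.16), the library as block and CG number times library reads as offset, for genes with at least 20 CGs of both classes and a mean of 10 reads per column. Windows of 1 Mb by class were tested between inputs after TMM scaling with at least 10 reads in every library. DESeq2 1.42.0 was the alternative tool, and adjusted p-values are Benjamini-Hochberg over all features tested, at 0.05. Python 3.11.15, numpy 2.4.6, scipy 1.17.1 and pandas 2.3.3 were used. Scripts were tested on simulated data.

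Named genes were the 12 with the most isolated CGs, up to 6 per direction with the largest ratio among called genes of at least 50 isolated CGs, and examples of 4 lists. Sites followed the rules given with them. The members and lists were chosen with earlier results of these data known. Alternatives were other distances (200 and 800 bp), repeats left out, no unknown base, reads capped at 20 per CG, CGs with a read, other scaling, filters, window size (5 Mb), pooled inputs, a replicate block and each library left out. Weighting by GC and by context, the CNCGNG grouping and K libraries without their top site were added after seeing the data.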

Additional observations from a re-analysis of the deposited data

Results flagged for a closer look

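The difference between the assays in how isolated CGs compare with their neighbours' classes was picked out, because the same ratio was tested in 2 kinds of library and differed between them. For isolated CGs against CGs with 1–5 others, the log2 ratio of levels was −1.14 in hmTOP-seq and −0.14 in uTOP-seq, a difference of −0.997 (exact permutation test over 6 and 3 libraries, p = 0.0238, the smallest possible). For isolated CGs against CGs with 20 or more others, the ratios were −2.51 and −1.50, a difference of −1.01 (exact permutation test, p = 0.0238). The assays also differed in DNA input, with 300 ng in uTOP-seq, and across the hmTOP-seq inputs the ratio to 20 or more others was −2.81 with 500 ng and −2.25 with 5 ng.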

How the results depend on the processing

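The hmTOP-seq level ratios of the 2 class comparisons kept their direction in every alternative run, and the difference from uTOP-seq against 1–5 others likewise. The size of the hmTOP-seq ratios moved with the distance. To 20 or more others the ratio was −0.429 with 200 bp and −3.34 with 800 bp, in place of −2.51. To 1–5 others it was −1.37 and −0.709. With 200 bp, the assay difference against 20 or more others was 1.07 in place of −1.01, and the uTOP-seq ratio to 1–5 others was −0.30. With 800 bp the share at isolated CGs differed from K by −0.050 points (exact permutation p = 0.387), and the uTOP-seq ratios were −0.032 and −1.19. They were −0.25 and −1.77 outside repeats, −0.037 and −1.26 at CGs with a read, and −1.48 to 20 or more others with reads capped. Weighting, chosen after seeing the data, gave uTOP-seq 0.092 (GC) and −0.095 (context). The cause of these shifts was not tested.

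Leaving out 1 library gave hmTOP-seq ratios of −1.16 to −1.12 and −2.57 to −2.44, for which 5 libraries allow no p below 0.0625, assay differences of −1.01 to −0.976 and −1.06 to −0.935 (no p below 0.0714 without a uTOP-seq library), K differences of −0.878 to −0.581 points and uTOP-seq ratios of −0.156 to −0.136 and −1.51 to −1.50. It gave 0 gene calls at 500 and at 50 ng, 190 to 206 at 5 ng, where the lone library was assumed to vary like the other inputs, and 0 to 2 in uTOP-seq, and 0 to 134 window calls at 50 ng and 0 to 398 at 5 ng.

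Gene calls at 500 ng, 169 in all, became 94 with DESeq2, 8 with TMM, 0 outside repeats and 0 with all 6 labelled libraries. At 50 ng 4 calls became 12, 1, 8 and 0, and 8 with reads capped. In uTOP-seq 21 became 0 outside repeats, where fewer genes were tested (351). The 22 window calls at isolated CGs at 50 ng became 0 with DESeq2 and 2 without a filter. The 0 at 5 ng became 85 with DESeq2 and 12 in 5-Mb windows, both with the read filter, and stayed 0 with edgeR without it. Same-numbered replicates of different inputs did not deviate together (correlations of 0.038, −0.0031 and 0.035 over 7420 features). This cannot show whether they were prepared together, and the numbers were not taken as pairs. A replicate block gave 38 and 30 window calls at isolated CGs for 50 and 5 ng. Over all features it gave 1091 and 403, against 645 and 0 without it. TMM moves the 500-ng ratios of all genes up by about the same amount, and with it those of Agbl4, Dlg2, Lingo2, Lrrc4c and Sgcz were 0.21, 0.28, 0.43, 0.10 and 0.42, and outside repeats that of Sgcz was 0.093. Of the other alternatives for single genes 85 kept their side of the threshold and 85 no longer passed.

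Depth limits single lone sites: at 5 ng 1.29% of them had a read, and a gene's isolated CGs often rest on under 10 reads at 500 ng.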
